A study of Mus musculus with 10 samples.

Results

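The genes examined here encode 10 parts of the transforming growth factor beta (TGF-beta) pathway. They are the 3 ligands Tgfb1, Tgfb2 and Tgfb3, the activation genes Nrros and Itgb8, the receptors Tgfbr1 and Tgfbr2, and the signal transducers Smad2, Smad3 and Smad7. They were taken by gene name from the deposited count table, where each of the 10 names matched a single row of 56748, and all 10 were among the 18969 genes that passed the filter on low counts. Microglia, sorted as CD11b-positive cells from brain at 400000 cells per sample, were represented by 5 libraries (R1 to R5), and hemi brains with no cell type isolated, called bulk brain here, by 5 libraries (R1 to R5). Both groups came from young C57BL/6 males, and no treatment or transgene is labelled for either. RNA was poly-A selected and sequenced, and only transcripts were measured, not TGF-beta protein or its activity.

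TGF-beta is secreted in a latent form, with the growth factor held inside its own cleaved propeptide. Latent TGF-beta is anchored by binding proteins in the matrix or by LRRC33 (encoded by Nrros) and GARP (encoded by Lrrc32) on the cell surface, and integrins such as alpha-v beta-8 (its beta chain encoded by Itgb8) release it by pulling on the propeptide. Free ligand binds the type II receptor TGFBR2, which activates the type I receptor TGFBR1, and this phosphorylates SMAD2 and SMAD3. These enter the nucleus with SMAD4, and SMAD7 is induced as an inhibitor of the receptors. In mice, microglia lose much of their mature gene expression when this signalling is lost.

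The propeptides of the ligands differ at the site that integrins grip, and the 3 coding stretches are shown because the motif there is what alpha-v integrins such as the Itgb8 product bind. They come from the GENCODE M21 transcripts (GRCm38), 5′ to 3′, with capitals on the codons for arginine, glycine and aspartate, the RGD motif, or on the aligned codons where the motif is missing.
Tgfb1: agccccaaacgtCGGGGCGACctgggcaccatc
Tgfb2: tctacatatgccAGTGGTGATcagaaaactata
Tgfb3: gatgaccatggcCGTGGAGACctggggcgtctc
The motif begins at codon 244 of 390 in Tgfb1 (chromosome 7) and at codon 259 of 410 in Tgfb3 (chromosome 12), and each reading frame holds it 1 time. Tgfb2 (chromosome 1) holds it 0 times in 414 codons, and the aligned position is codon 261. Tgfb1 and Tgfb3 thus carry the integrin motif in this reference and Tgfb2 does not.

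Total counts lay between 25087489 and 28514509 in the microglia libraries and between 25845049 and 34709215 in those of bulk brain. Levels are given in CPM, the usual scaling of read counts by library total, here with the total adjusted for composition by TMM. A library with 0 counts of a gene may still hold up to 3 counts' worth, which is 0.0821 to 0.125 CPM depending on the library (counting error only). The sort antigen gene Itgam stood at 498 ± 18 CPM in microglia, against 4.65 ± 1.24 CPM in bulk brain (SD, n = 5 each). Microglia libraries varied little among themselves (biological coefficient of variation 10.7%), whereas bulk brain varied by 30.1% over 5 libraries and by 6.47% over R3 to R5, with R1 and R2 standing apart. For the 10 genes, the log2 difference is therefore also given against R3 to R5 alone. Whether each library of a group is a different animal is not labelled, and the p-values therefore measure library-to-library spread, which may be technical. In bulk brain, fewer cells of a type and less RNA per cell cannot be told apart. Only microglia were isolated by sorting, so effects of that handling and of cell type cannot be told apart in any difference given here.

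All 10 genes differed between microglia and bulk brain, 7 of them higher and 3 lower in microglia. Tgfb1, Nrros, Tgfbr1, Tgfbr2, Smad2, Smad3 and Smad7 were higher, by 2.19-fold to 117-fold, and Tgfb2, Tgfb3 and Itgb8 were lower, by 15.4-fold to 71.1-fold. Calls were made by edgeR's quasi-likelihood test over all 18969 genes at a Benjamini-Hochberg adjusted p under 0.05. Differences were common: 37.2% of all tested genes were called higher and 43.9% lower, 81.0% in all, and the median gene had a log2 difference (microglia minus bulk brain) of -0.14. The libraries of the groups did not overlap for any of the 10 genes, as for 74.7% of all tested genes (34.2% higher, 40.5% lower in microglia). The plot of levels by library shows the split within the ligands and within the activation genes.

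**Figure D1:**
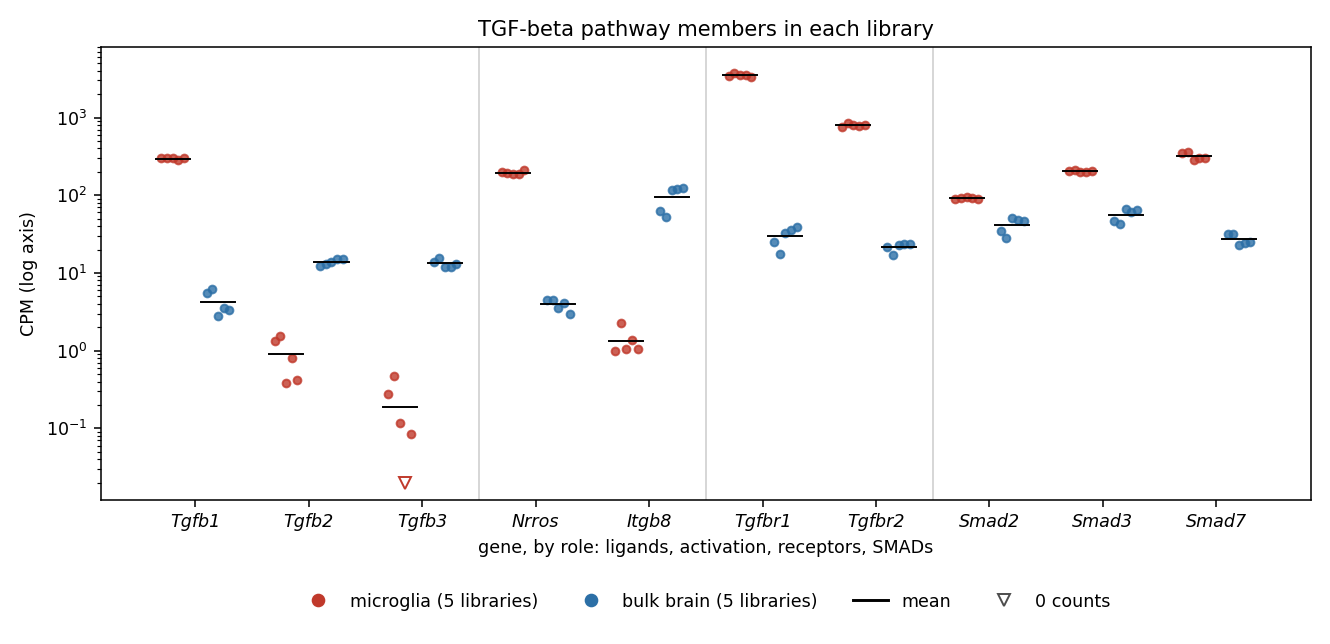
Level of each of the 10 genes in every library, in CPM on a log axis, with microglia (red, left of each pair) and bulk brain (blue, right) and the group mean as a black line. The 5 points of a group stay apart from those of the other group for all 10 genes, and the open triangle marks the microglia library with 0 counts of Tgfb3.

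Of the ligands, Tgfb1 was the abundant one in microglia and the scarcest in bulk brain. Tgfb1, whose product is the TGF-beta that microglia are known to depend on (ENSMUSG00000002603, chromosome 7, 25386427 to 25404502, plus strand, GRCm39), stood at 299, 299, 298, 280.2 and 298 CPM in microglia R1 to R5, against 5.45, 6.18, 2.80, 3.53 and 3.33 CPM in bulk brain R1 to R5. The microglia libraries lay within a narrow band, and bulk brain R1 and R2 lay above R3 to R5. The log2 difference was 6.11 ± 0.23 (SE; edgeR quasi-likelihood test, adjusted p = 4.1e-10), and 6.35 against bulk brain R3 to R5 alone. Only 529 of the 18969 genes had a larger one.

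Tgfb2 and Tgfb3 were both low in microglia, where Tgfb3 lay near the counting limit. Tgfb2, which encodes the ligand without the integrin motif (ENSMUSG00000039239, chromosome 1, 186354989 to 186438186, minus strand), stood at 1.31, 1.55, 0.386, 0.796 and 0.417 CPM in microglia R1 to R5, against 12.1, 13.1, 13.8, 15.3 and 14.9 CPM in bulk brain R1 to R5. These microglia values rest on 113 counts in all, and the noncoding genes that overlap Tgfb2 on the opposite strand had at most 22 counts in bulk brain. The log2 difference was -3.95 ± 0.36 (SE; edgeR adjusted p = 7.8e-07), and -4.19 against bulk brain R3 to R5, and every microglia library lay below every bulk brain library. Tgfb3, the third ligand gene (ENSMUSG00000021253, chromosome 12, 86103519 to 86125815, minus strand), had 7, 12, 3, 0 and 2 counts in microglia R1 to R5, or 0.278, 0.465, 0.116, 0 and 0.0834 CPM, against 13.7, 15.5, 12.1, 11.9 and 13.02 CPM in bulk brain R1 to R5. The 24 microglia counts have an exact Poisson interval of 15.4 to 35.7 (95%, counting error only). For Tgfb3 the log2 difference was -6.09 ± 0.49 (SE; edgeR adjusted p = 2.7e-07), and -6.14 against bulk brain R3 to R5. Without microglia R2, which held 12 of the 24 counts, it was -6.73. The Tgfb3 locus overlaps Ttll5 on the opposite strand (1430 counts in microglia and 10006 in bulk brain), and the strand setting of the counting is not given in the sources used here.

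Microglia R1 and R2 had the highest levels of both Tgfb2 and Tgfb3. The same libraries were highest in the summed level of 12 endothelial markers (127 and 119 CPM, against 89.4 to 98.8 CPM in R3 to R5 of microglia) and of 12 mural and fibroblast markers (22.8 and 26.0 CPM, against 10.3 to 14.8 CPM). In bulk brain these sums were 328 to 407 CPM and 287 to 329 CPM. Among microglia R3 to R5 the orders matched only in part. Tgfb2 was highest in R4 (0.796 CPM), where the mural and fibroblast sum was lowest (10.3 CPM), while Tgfb3 had 0 counts there. The endothelial sum is not a clean measure of endothelial cells. Of its 12 genes, 10 were called lower in microglia and 1 higher, and single genes reached up to 228% of their bulk brain level. Pecam1 had the highest level of them in microglia. The part of endothelial, mural and fibroblast cells in the residual Tgfb2 and Tgfb3 was not tested. As shares of the bulk brain level, Tgfb2 in microglia was at 6.44% and Tgfb3 at 1.42%. The median marker was at 16.4% for endothelial cells, 4.56% for mural cells and fibroblasts, 0.743% for the oligodendrocyte lineage, 0.466% for astrocytes and 0.125% for neurons.

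Scaled by gene length, so that genes can be compared, Tgfb1 made up 99.6% ± 0.23 of the summed ligand level in microglia, against 11.6% ± 3.20 in bulk brain (SD, 5 libraries each). Tgfb3 made up 0.0935% ± 0.0914 in microglia and 54.7% ± 2.13 in bulk brain, and Tgfb2 0.262% ± 0.151 and 33.7% ± 4.84. The share of Tgfb1 in bulk brain was 14.99% and 15.19% in R1 and R2 and 8.53% to 10.2% in R3 to R5, so that it was the smallest of the 3 in every bulk brain library. The sum itself was 58.7 ± 1.68 CPM per kb in microglia and 7.15 ± 0.576 CPM per kb in bulk brain. Gene lengths are those of the deposited table and do not follow which isoform was used.

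**Figure D2:**
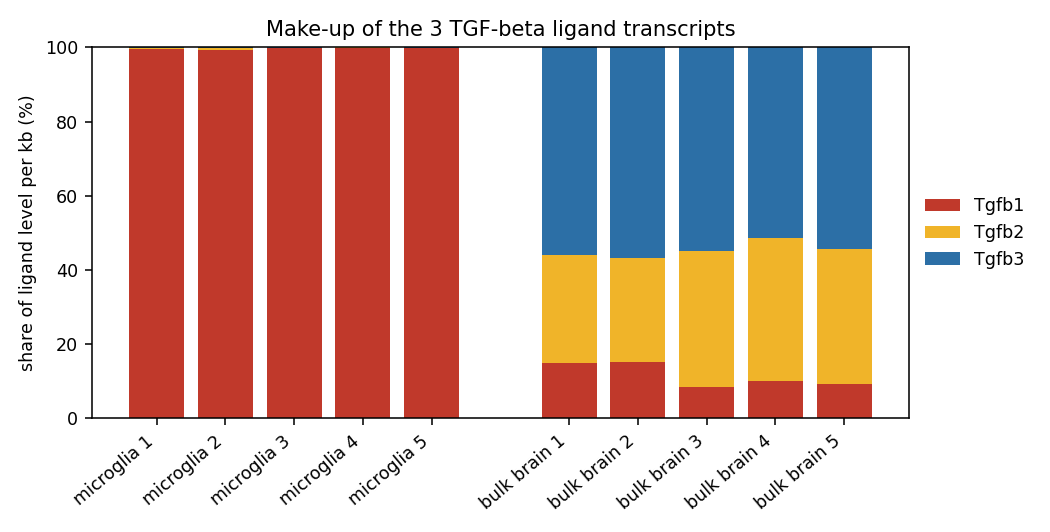
Share of each ligand gene in the summed level of Tgfb1, Tgfb2 and Tgfb3 (CPM per kb of gene length, in percent, bars from 0) in each of the 5 microglia and 5 bulk brain libraries. Tgfb1 fills nearly the whole bar in microglia, at 99.3% to 99.8%, and 8.53% to 15.19% of it in bulk brain.

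The activation genes went in opposite directions. Nrros, whose product tethers latent TGF-beta 1 on myeloid cells (ENSMUSG00000052384, chromosome 16, 31961603 to 31984412, minus strand), stood at 199.6, 191, 187, 188 and 213 CPM in microglia R1 to R5, against 4.55, 4.53, 3.49, 4.10 and 3.0004 CPM in bulk brain R1 to R5. Nrros was 49.7-fold higher in microglia, a log2 difference of 5.63 ± 0.14 (SE; edgeR adjusted p = 2.0e-11), and 5.64 against bulk brain R3 to R5. Per kilobase, Nrros ran at 0.801 ± 0.0408 times the level of Tgfb1 in microglia and at 1.18 ± 0.264 times in bulk brain (SD, n = 5 each), with a range of 0.759 to 0.862 in microglia and of 0.886 to 1.505 in bulk brain.

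Itgb8, the integrin beta chain whose heterodimer releases TGF-beta from latent complexes with the RGD motif (ENSMUSG00000025321, chromosome 12, 119121757 to 119202537, minus strand), stood at 0.993, 2.25, 1.04, 1.35 and 1.04 CPM in microglia R1 to R5, against 62.6, 52.8, 118, 119 and 125 CPM in bulk brain R1 to R5. Bulk brain R1 and R2 lay below R3 to R5, and microglia R2 lay above the other microglia libraries. The log2 difference was -6.15 ± 0.36 (SE; edgeR adjusted p = 1.4e-08), -6.65 against bulk brain R3 to R5 and -5.51 against R1 and R2. Microglia R2 was also the library with the most neuron (34.2 CPM), astrocyte (173 CPM) and oligodendrocyte lineage (249 CPM) marker counts, each a sum over 12 to 14 genes, while the other microglia libraries held 11.9 to 28.8, 136 to 152 and 145 to 211 CPM. These sums weigh a few genes most. Astrocyte markers in microglia reached up to 25.7% of their bulk brain level, with a median of 0.466%, and Slc1a3 had the highest level. Oligodendrocyte lineage markers reached up to 13.4%, with a median of 0.743%, and Mbp had the highest level. Microglia R2 was also highest in the mural and fibroblast sum (26.0 CPM), so Itgb8 cannot be matched to a single one of these lists. The part of any such cells in the Itgb8 level was not tested. Itgb8 in microglia amounted to 1.40% of its bulk brain level.

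Both receptor genes were far higher in microglia, Tgfbr1 more than any other of the 10 genes. Tgfbr1, the type I receptor kinase (ENSMUSG00000007613, chromosome 4, 47353222 to 47414931, plus strand), stood at 3430.2, 3689, 3549, 3517 and 3349.5 CPM in microglia R1 to R5, against 25.1, 17.3, 32.6, 35.8 and 38.9 CPM in bulk brain R1 to R5. Microglia varied by 3.65% (coefficient of variation) and bulk brain by 29.1%, with R1 and R2 lowest. The log2 difference was 6.87 ± 0.24 (SE; edgeR adjusted p = 1.9e-10), 6.46 against bulk brain R3 to R5 and 7.28 against R1 and R2. Per kilobase, Tgfbr1 ranked 52nd of 15029 tested coding genes in microglia, and it ranked 7898th in bulk brain.

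Tgfbr2, the ligand-binding type II receptor (ENSMUSG00000032440, chromosome 9, 115913361 to 116004428, minus strand), stood at 762, 853, 792, 769 and 798 CPM in microglia R1 to R5, against 21.4, 16.9, 23.0, 23.7 and 23.6 CPM in bulk brain R1 to R5. It was 36.6-fold higher in microglia, a log2 difference of 5.20 ± 0.12 (SE; edgeR adjusted p = 1.4e-11), with the same call against bulk brain R3 to R5 (4.93). The balance of the receptors also differed: per kilobase, Tgfbr1 stood at 5.53 ± 0.189 times the level of Tgfbr2 in microglia (range 5.26 to 5.73) and at 1.70 ± 0.317 times in bulk brain (range 1.29 to 2.07; n = 5 each). These ratios describe the transcripts, and no test was run on them.

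The 250 bases before the start of each receptor gene, for Tgfbr1 the first of 2 starts in the table, are shown because both genes were high in the same cells (RefSeq, GRCm38.p6; Tgfbr1 plus strand, chr4:47352972-47353221; Tgfbr2 minus strand, chr9:116175364-116175613; 5′ to 3′ along the gene). Capitals mark CAGAC, bound by SMAD proteins, and GAGGAA, the core bound by the myeloid factor PU.1, each searched on both strands.
Tgfbr1: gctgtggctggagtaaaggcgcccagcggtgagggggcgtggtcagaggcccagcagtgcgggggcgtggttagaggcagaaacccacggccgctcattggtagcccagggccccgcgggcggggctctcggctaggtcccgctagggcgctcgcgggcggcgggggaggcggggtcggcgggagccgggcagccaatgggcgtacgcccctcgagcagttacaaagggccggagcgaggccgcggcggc
Tgfbr2: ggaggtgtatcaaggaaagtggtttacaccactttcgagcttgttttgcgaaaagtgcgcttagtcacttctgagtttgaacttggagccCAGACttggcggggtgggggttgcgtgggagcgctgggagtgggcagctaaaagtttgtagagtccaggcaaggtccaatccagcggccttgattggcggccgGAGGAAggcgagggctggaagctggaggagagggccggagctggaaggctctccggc
The Tgfbr2 stretch holds 1 match of each, 160 and 57 bases before the start, and the printed Tgfbr1 stretch holds 0. The stretch before the other Tgfbr1 start (chr4:47385966-47386215, not printed) also holds 1 of each, 203 and 95 bases before that start. Of the other members with an entry, Tgfb2, which was lower in microglia, holds 2 of CAGAC and 1 of GAGGAA, Nrros and Itgb8 hold 1 CAGAC each, and Tgfb1 and Smad3 hold 0 of either. Of 32851 such stretches in the table, 42.2% hold CAGAC, 23.3% GAGGAA and 9.81% both, and matches occurred in genes of both directions.

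**Figure D3:**
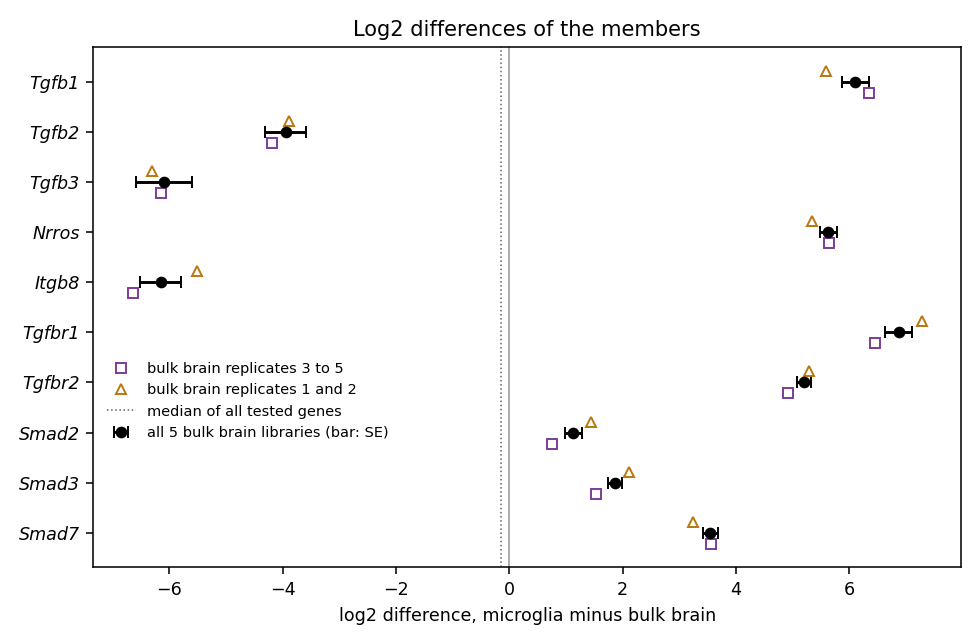
Log2 difference (microglia minus bulk brain) of each gene with its SE, over all libraries (filled circles) and against bulk brain R3 to R5 (squares) or R1 and R2 (triangles), with the median of all tested genes as a dotted line. The 3 estimates of a gene lie on the same side of 0 for all 10 genes, and they lie farthest apart for Itgb8, from -6.65 to -5.51.

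The SMAD genes were higher in microglia by less than the receptors. Smad2, a receptor-activated SMAD (ENSMUSG00000024563, chromosome 18, 76374651 to 76444034, plus strand), stood at 88.2, 92.7, 95.3, 91.6 and 89.2 CPM in microglia R1 to R5, against 35.1, 28.5, 51.5, 47.9 and 45.9 CPM in bulk brain R1 to R5. Its log2 difference of 1.13 ± 0.15 (SE; edgeR adjusted p = 2.4e-05) was the smallest of the 10, and it was 0.76 against bulk brain R3 to R5. Smad3, the other receptor-activated SMAD (ENSMUSG00000032402, chromosome 9, 63554049 to 63665276, minus strand), stood at 203, 212, 201, 200.3 and 205 CPM in microglia R1 to R5, against 46.9, 42.5, 65.7, 60.9 and 64.3 CPM in bulk brain R1 to R5. For Smad3 the log2 difference was 1.87 ± 0.13 (SE; edgeR adjusted p = 7.6e-08), and 1.53 against bulk brain R3 to R5. In both genes bulk brain R1 and R2 were the lowest libraries.

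Smad7, the inhibitory SMAD that TGF-beta itself induces (ENSMUSG00000025880, chromosome 18, 75500600 to 75529006, plus strand), stood at 347, 358, 280.2, 305 and 299 CPM in microglia R1 to R5, against 32.1, 31.5, 22.9, 24.5 and 24.7 CPM in bulk brain R1 to R5. It was the most variable of the 7 genes higher in microglia within that group (coefficient of variation 10.4%, against 2.29% for Smad3 and 3.10% for Smad2), with R1 and R2 above R3 to R5. The log2 difference was 3.55 ± 0.14 (SE; edgeR adjusted p = 4.1e-10), and 3.56 against bulk brain R3 to R5. Microglia R1 and R2 were also highest in the summed level of 10 immediate early genes, such as Fos and Atf3, which cells induce within minutes of a stimulus: 19650 and 20180 CPM, against 16175 to 17007 CPM in microglia R3 to R5 and 316 to 504 CPM in bulk brain. All 10 of these genes were called higher in microglia (median log2 difference 6.12), beside 37.2% of all tested genes. Only microglia were sorted, so handling and cell type cannot be told apart here either. The list of immediate early genes was added after the data were seen, and its part in the Smad7 level was not tested. Microglia R1 and R2 also had the highest endothelial sums and the highest mural and fibroblast sums, given above. Per kilobase, Smad7 stood at 1.49 ± 0.142 times the sum of Smad2 and Smad3 in microglia and at 0.430 ± 0.162 times in bulk brain, where it was 0.571 to 0.638 in R1 and R2 and 0.286 to 0.330 in R3 to R5 (SD, n = 5 each). Smad3 stood at 3.54 ± 0.138 times Smad2 in microglia and at 2.15 ± 0.146 times in bulk brain.

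Ordered by level per kilobase, neighbours among the 10 genes were mostly separated in microglia. In bulk brain this depended on the libraries used. In microglia the order was Tgfbr1 (537 CPM per kb), Tgfbr2 (97.1), Smad7 (70.3), Tgfb1 (58.5), Nrros (46.9), Smad3 (36.8), Smad2 (10.4), Tgfb2 (0.154), Itgb8 (0.121) and Tgfb3 (0.0557). Of the 9 pairs of neighbours in that order, 7 had ranges over the libraries that did not overlap. Those ranges hold library spread alone, and the gene lengths do not follow which isoform was used. Some steps were small: 1.20-fold from Smad7 to Tgfb1, 1.25-fold from Tgfb1 to Nrros and 1.27-fold from Nrros to Smad3. Tgfb2, Itgb8 and Tgfb3 overlapped their neighbours and could not be ranked among themselves. The drop from Smad2 to Tgfb2 was 67.6-fold. In bulk brain the order was Smad3 (10.1 CPM per kb), Itgb8 (8.63), Smad7 (6.00), Smad2 (4.76), Tgfbr1 (4.58), Tgfb3 (3.91), Tgfbr2 (2.65), Tgfb2 (2.39), Nrros (0.942) and Tgfb1 (0.845). There, 2 of the 9 pairs of neighbours were separated, Tgfb3 from Tgfbr2 and Tgfb2 from Nrros, and over R3 to R5 alone 6 were, with Smad7 falling behind Smad2 and Tgfbr1. Nrros and Tgfb1, both high in microglia, were the last in bulk brain.

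**Figure D4:**
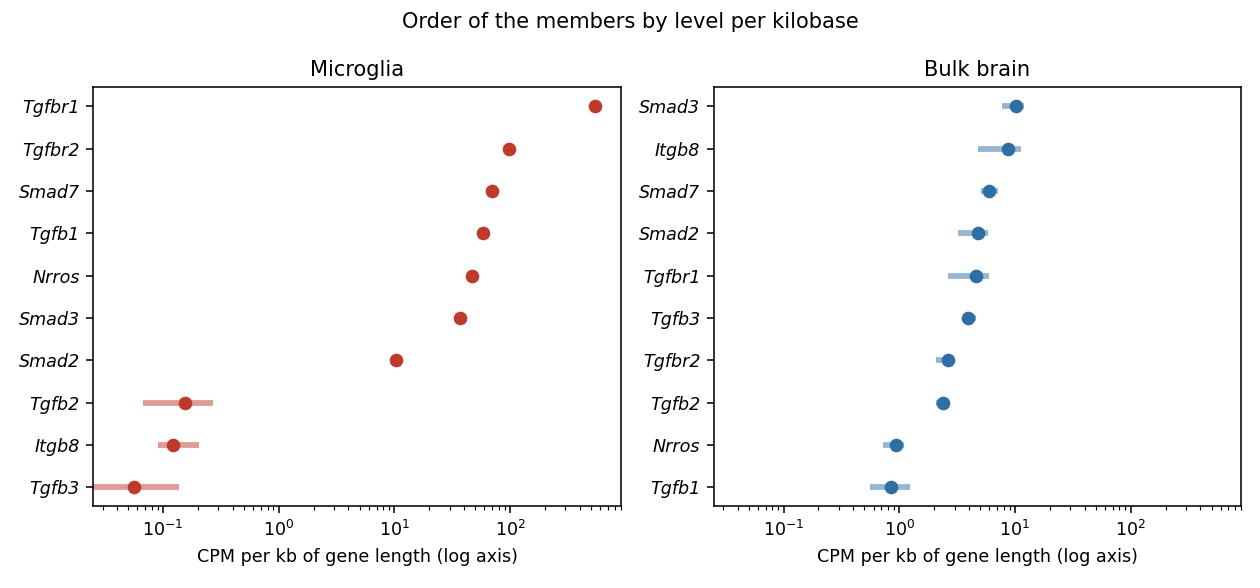
The 10 genes ordered by mean level per kilobase (CPM per kb, log axis) in microglia (left) and bulk brain (right), with the bar from the lowest to the highest of 5 libraries. Microglia span 537 to 0.0557 CPM per kb, with the bar of Tgfb3 ending at 0 (cut at the axis). Bulk brain spans 10.1 to 0.845 CPM per kb, with mostly overlapping bars over all 5 libraries. Over R3 to R5 alone, 6 pairs of neighbours were separated there.

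The genes higher in microglia differed in how much of their transcript remained in bulk brain. Tgfbr1 in bulk brain stood at 0.854% of its microglial level, Tgfb1 at 1.44%, Nrros at 2.01% and Tgfbr2 at 2.73%. For 25 microglia marker genes the same quantity ranged from 0.533% to 2.70%, with a median of 0.840%. Tgfbr1, Tgfb1 and Nrros thus lay inside the range of the microglia markers, with Tgfbr2 just above it, and Smad7 (8.54%), Smad3 (27.4%) and Smad2 (45.7%) lay well above it. Markers of border macrophages, which also carry CD11b, were higher in the sorted cells as well: 12 such genes summed to 2202 to 2455 CPM in microglia and 38.5 to 45.2 CPM in bulk brain, led by the scavenger receptor gene Stab1. In bulk brain, single genes of that list stood at 0.788% to 12.2% of their microglial level, overlapping the microglia marker range. The sum is therefore not a clean measure of border macrophages. The 14 blood leukocyte markers summed to 49.3 to 62.9 CPM in microglia, led by the chemokine receptor gene Ccr2, and to 1.16 to 2.11 CPM in bulk brain. Of these, 5 could be tested and were higher, and the others were too low to test, among them Nkg7 with 1 count in microglia and 9 in bulk brain. Their part in the levels of the 10 genes was not tested. Of the defining markers in the neuron, astrocyte, oligodendrocyte lineage, endothelial and mural lists, 0 had 0 counts over the microglia libraries. The marker with the highest level of each list in microglia was Camk2a (12.1 CPM), Slc1a3 (130.4 CPM), Mbp (76.8 CPM), Pecam1 (41.7 CPM) and Rgs5 (5.22 CPM), in that order of lists.

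Among other genes of latency and activation, the anchoring proteins of the matrix were lower in microglia and the integrins and proteases mostly higher. Of 16 listed genes, 15 were tested, and the threshold was passed by 8 upwards and by 5 downwards, with a median log2 difference of 1.31 beside -0.14 for all tested genes. Of all tested genes, 37.2% were called higher and 43.9% lower. The latent TGF-beta binding protein genes were all lower: Ltbp2 stood at 0.0898 ± 0.124 CPM in microglia, against 9.21 ± 2.44 CPM in bulk brain (log2 difference -6.64, and -7.42 without microglia R5), Ltbp1 at 0.266 ± 0.169 and 6.17 ± 1.04 CPM, Ltbp3 at 7.22 ± 1.78 and 62.9 ± 3.70 CPM, and Ltbp4 at 4.78 ± 1.92 and 57.4 ± 1.81 CPM (SD, n = 5 each). Lrrc32, the GARP gene and relative of Nrros, was lower as well, at 0.557 ± 0.429 CPM against 3.56 ± 0.762 CPM. Itgav, the alpha-v chain that pairs with the product of Itgb8, was higher (276 ± 4.64 CPM against 98.9 ± 21.1 CPM). Of the other beta chains that pair with alpha-v, Itgb3 was higher (161 ± 14.6 CPM against 3.67 ± 0.830 CPM; edgeR adjusted p = 1.2e-10 at a log2 difference of 5.46 ± 0.18 SE), and Itgb5, also in the microglia marker list, stood at 2349 ± 90.2 CPM against 63.3 ± 15.1 CPM. The log2 difference of Itgb3 was above that of Itgb5 over all libraries (5.46 and 5.21) and below it against bulk brain R3 to R5 (5.08 and 5.32). Itgb6, the beta chain of the other integrin known for releasing TGF-beta, was too low to test (0.215 ± 0.231 CPM against 0.109 ± 0.0691 CPM). Furin, whose protease cuts the ligand precursors, was higher (108 ± 5.63 CPM against 33.6 ± 3.49 CPM), and the matrix protease gene Mmp9 did not pass the threshold (2.77 ± 1.27 CPM against 1.79 ± 0.299 CPM).

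Co-receptors and receptor regulators moved both ways. The threshold was passed by 12 of 14 genes, 7 higher and 5 lower (median log2 difference 0.42). That is near the share over all tested genes, 81.0% (37.2% higher, 43.9% lower). The co-receptor gene Eng was higher, at 180.1 ± 12.9 CPM in microglia, against 20.2 ± 2.65 CPM in bulk brain (edgeR adjusted p = 2.6e-10 at a log2 difference of 3.16 ± 0.11 SE). The co-receptor gene Tgfbr3 (betaglycan, which presents TGF-beta 2) was lower, at 0.773 ± 0.401 CPM against 19.0 ± 4.497 CPM (edgeR adjusted p = 1.8e-07 at a log2 difference of -4.61 ± 0.36 SE). Cd109 was lower by nearly as much (log2 difference -4.56, and -6.96 without microglia R2). Pmepa1, a TGF-beta induced inhibitor of receptor signalling, was higher (323 ± 11.6 CPM against 45.8 ± 8.10 CPM), as were Smurf1 (152 ± 7.28 CPM against 45.4 ± 10.9 CPM) and Smurf2 (129 ± 6.68 CPM against 36.1 ± 11.1 CPM), ubiquitin ligases that SMAD7 brings to the receptors. Fkbp1a, whose product holds the type I receptor inactive, was lower (63.2 ± 1.53 CPM against 413 ± 153 CPM), and so was Zfyve9, which encodes the SMAD anchor SARA (28.4 ± 2.99 CPM against 114 ± 26.3 CPM).

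Most other SMADs and their nuclear partners were higher in microglia. Of 13 listed genes, 12 were tested, with 8 higher, 3 lower and 1 not past the threshold (median log2 difference 1.16). Over all tested genes 37.2% were called higher and 43.9% lower. Smad4, the shared partner of the activated SMADs, stood at 95.9 ± 9.12 CPM in microglia, against 48.8 ± 13.3 CPM in bulk brain (log2 difference 0.97). Tgif1, a SMAD co-repressor gene, was higher, at 189 ± 22.2 CPM against 1.43 ± 0.155 CPM (edgeR adjusted p = 5.4e-12 at a log2 difference of 7.04 ± 0.14 SE). The co-repressor genes Skil (843 ± 37.3 CPM against 79.1 ± 21.7 CPM) and Ski (539 ± 21.9 CPM against 153 ± 21.4 CPM) were higher too. Smad9, a SMAD of the bone morphogenetic protein branch, had 1 count over the 5 microglia libraries, in R4, and 26.0 ± 7.66 CPM in bulk brain, a ratio of bulk brain over microglia of 3242 (95% counting interval 582 to 128055). Nedd4l (22.7 ± 2.27 CPM against 126 ± 33.8 CPM) and Ppm1a (90.3 ± 1.80 CPM against 302 ± 30.7 CPM), whose products remove or switch off activated SMADs, were lower. The call for Smad6, an inhibitory SMAD (4.16 ± 0.726 CPM against 2.72 ± 0.441 CPM), was lost in 9 of 20 alternative analyses.

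Genes known as TGF-beta targets moved in both directions. Over all tested genes 37.2% were called higher and 43.9% lower. Of 18 listed genes, 17 were tested, with 6 higher, 10 lower and 1 not past the threshold (median log2 difference -2.26). Among the higher genes were Tgif1, Skil and Pmepa1, already described, Tgfbi, an extracellular matrix protein gene (96.9 ± 5.10 CPM in microglia, against 5.63 ± 1.10 CPM in bulk brain), and the cell cycle inhibitor gene Cdkn1a (29.0 ± 3.14 CPM against 17.1 ± 4.45 CPM). Among the lower ones, the matrix-associated gene Ccn2 was lower (0.269 ± 0.117 CPM against 19.2 ± 4.34 CPM; edgeR adjusted p = 4.9e-09 at a log2 difference of -6.14 ± 0.32 SE), and Col1a1, a collagen gene, stood at 0.276 ± 0.222 CPM against 19.3 ± 2.41 CPM. Their log2 differences and that of another collagen gene, Col3a1, were nearly level over all libraries (-6.14, -6.10 and -6.09), and that of Col3a1 was -8.99 without microglia R3. The list shares 4 genes with the mural and fibroblast markers, Col1a1 among them, and those 12 markers together summed to 10.3 to 26.0 CPM in microglia and 287 to 329 CPM in bulk brain. Of the microglia genes known in mice to depend on TGF-beta, all 12 listed were higher (median log2 difference 7.16), with Gpr34, a receptor gene, at 7.55. Against bulk brain R1 and R2 alone P2ry12, another receptor gene, stood above it (7.63 and 7.45), and against R3 to R5 alone Gpr34 and Tmem119, a membrane protein gene, were level at 7.41. As 11 of these 12 are also microglia markers, the count does not separate TGF-beta from cell type.

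Other ligands of the superfamily and their extracellular traps were mostly lower in microglia. Of 22 listed genes, 18 were tested, with 16 lower, 1 higher and 1 not past the threshold (median log2 difference -7.42, or -7.12 with genes at 0 counts placed at their bound). Over all tested genes 43.9% were called lower and 37.2% higher. Gdf10, a growth factor gene, had 0 counts in microglia and 27.7 ± 2.72 CPM in bulk brain, which makes it at least 1166-fold lower when 3 counts over all microglia libraries are taken as the floor. Chrd, the gene for the BMP trap chordin, stood at 0.0328 ± 0.0543 CPM against 28.1 ± 3.30 CPM (log2 difference -9.61, and -10.96 without microglia R5). Gdf15, a stress-induced ligand gene, was the 1 higher gene, with 5.41 ± 1.51 CPM in microglia where bulk brain had 0.213 ± 0.228 CPM (a difference of 4.599 on the log2 scale, and 5.34 without bulk brain R1, which held 0.602 CPM), and Bmp2 did not pass the threshold (7.17 ± 1.94 CPM against 5.12 ± 0.876 CPM; edgeR adjusted p = 0.058).

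Receptors of the activin and BMP branches moved both ways (3 higher, 4 lower and 3 not past the threshold of 10, with a median log2 difference of 0.09). Over all tested genes 37.2% were called higher and 43.9% lower. The counts of these receptors depended on the bulk brain libraries: 7 were lower against R3 to R5 alone and 6 were higher against R1 and R2 alone. Acvr2b, a type II activin receptor gene, was higher, at 34.4 ± 2.40 CPM in microglia, against 6.07 ± 4.53 CPM in bulk brain, where R1 and R2 averaged 1.17 CPM and R3 to R5 9.34 CPM (log2 difference 2.51, 1.73 against R3 to R5 and 4.78 against R1 and R2). The type I receptor gene Acvr1 (87.0 ± 4.70 CPM against 29.3 ± 3.05 CPM) was also higher. Acvr1c, a type I receptor gene, was lower, at 0.0547 ± 0.0759 CPM against 25.3 ± 9.95 CPM (-8.73, and -9.52 without microglia R3), and so was Bmpr1b, a BMP receptor gene, at 0.111 ± 0.185 CPM against 24.8 ± 5.33 CPM (-7.75, and -9.50 without microglia R4). Acvr1b, the activin type I receptor gene, was lower by less (58.7 ± 3.36 CPM against 114 ± 17.4 CPM). The 3 genes not past the threshold changed direction between those subsets. Bmpr2, a type II BMP receptor gene (259 ± 9.90 CPM against 232 ± 81.5 CPM), had a log2 difference of -0.32 against R3 to R5 and 0.78 against R1 and R2. Acvr2a, a type II activin receptor gene, was at -0.41 and 0.66, and Bmpr1a, a type I BMP receptor gene, at -0.29 and 0.48, and all 6 values were past the threshold.

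**Figure D5:**
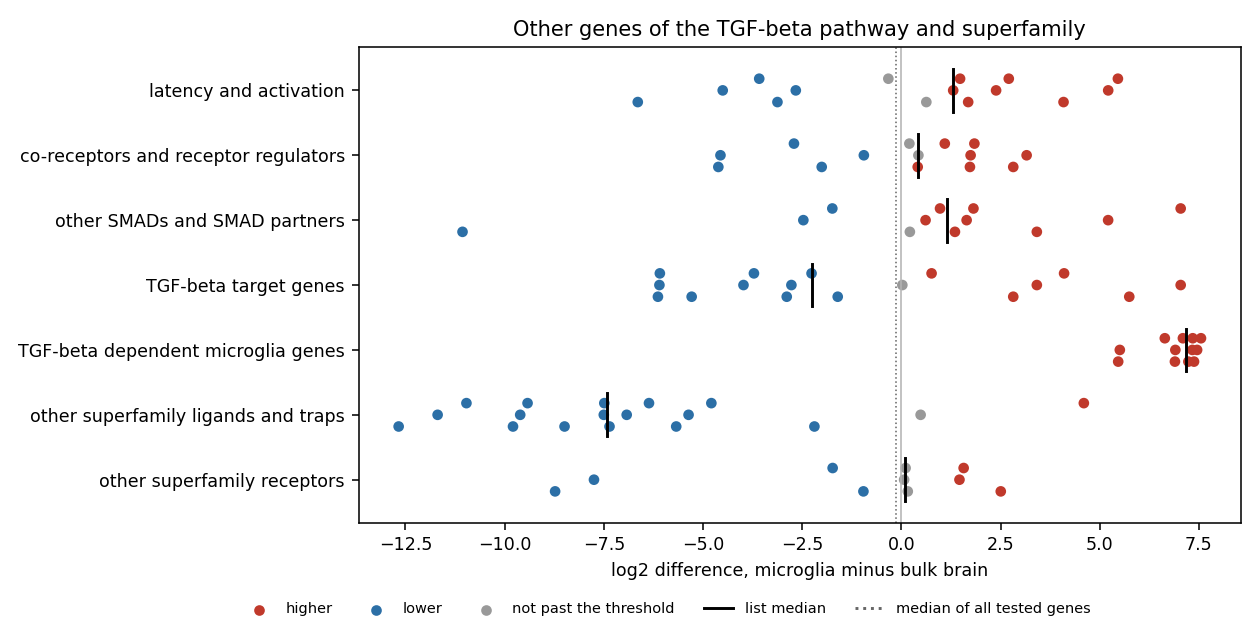
Log2 difference (microglia minus bulk brain) of every tested gene in 7 lists of the pathway and superfamily, coloured by call, with the list median as a black line and the median of all tested genes as a dotted line. Superfamily ligands lie mostly left of 0 (median -7.42), TGF-beta dependent microglia genes right of it (median 7.16), and the other lists spread over both sides.

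For each of the 10 genes, the tested coding gene with the most similar pattern over the 10 libraries was found, by the root-mean-square difference of log2(CPM + 0.1) after centring each gene on its mean. The closest matches were Lpin2 for Smad3 (0.0441), Jak1 for Smad2 (0.0527), Zfp36l2 for Tgfbr2 (0.0828), Gmip for Nrros (0.0887) and Fcgr2b for Tgfbr1 (0.0979). For Tgfb1 it was Clcf1 (0.108) and for Smad7 Ucp2 (0.115). The genes low in microglia had looser matches, Tspan12 for Tgfb3 (0.235), Eln for Tgfb2 (0.246) and Cit for Itgb8 (0.267).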

How the data were processed

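The authors deposited raw counts per gene, with no normalization, in 1 table of 10 libraries, together with symbols, coordinates and gene lengths (an annotation column in bases, per the file headers). Per the submitters' processing notes CASAVA, HISAT2 2.2.1, featureCounts 2.0 and GRCm39 (mm39) were used, with no role stated; for the strand setting, multi-mapping rule and annotation release the sources used here give nothing. Genes were kept by filterByExpr, scaled by TMM and tested with edgeR 4.0.16 (quasi-likelihood, R 4.3.3, limma 3.58.1), group as the only term, all 10 libraries, Benjamini-Hochberg threshold 0.05. The SE is the log2 difference divided by the square root of F. The members and lists were chosen with earlier results of these data known. All 10 members are named; of each list the largest rise and fall among called genes that reach 5 CPM in either group's mean, and up to 3 called genes against the list's direction, others having been chosen after their values were seen. A gene that this rule names is not reported here. The fit was tried on simulated data of 18946 genes, with 67 changed 1.5-fold, 67 changed 2-fold and 66 changed 4-fold. It found 10.4%, 67.2% and 100% of these, in that order, with 2.48% false calls. The rate of false calls where most genes differ, as here (81.0% called), was not tested. Replicate libraries differed by more than sampling of reads gives (lowest chi-square over its degrees of freedom 5.45). Promoters of 7 members were read from RefSeq (GRCm38.p6); the RGD codons were read from GENCODE M21 transcripts, a choice made after the references were seen. Alternatives were other scalings and filters, DESeq2 1.42.0, limma-voom, a replicate block, leaving out each library, and bulk brain R1 and R2 or R3 to R5 alone. Levels and plots used Python 3.11.15, matplotlib 3.10.9, SciPy 1.17.1, pandas 2.3.3 and numpy 2.4.6.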

Additional observations from a re-analysis of the deposited data

Results flagged for a closer look

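In 9 of 79 groups of 5 libraries, 1 library stood far from the other 4, by a gap above 0.71 of the group's range (Dixon's test). Chance gives about 1 in 20 for normally distributed values. Groups near 0 counts, such as Smad9 and Bmpr1b in microglia, are not of that kind, so the count cannot be judged by that rate. Of the 10 members, Tgfb1 was lowest in microglia R4 (280.2 CPM, others 298 to 299 CPM) and Itgb8 highest in microglia R2 (2.25 CPM, others 0.993 to 1.35 CPM). Among other microglia values, Bmpr1b in R4 (0.438 CPM, others 0 to 0.0795 CPM) and Smad9 in R4 (0.0398 CPM, a single count, others 0) were high, and Fkbp1a (60.6 CPM, others 63.3 to 64.4 CPM) and Ppm1a (87.1 CPM, others 90.7 to 91.5 CPM) were low in R1. In bulk brain, Gdf15 (0.602 CPM, others 0.0364 to 0.193 CPM) and Ltbp1 (7.97 CPM, others 5.28 to 5.88 CPM) were high in R1, and Tgfbi was low in R3 (3.75 CPM, others 5.78 to 6.49 CPM).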

How the results depend on the processing

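All 10 members kept their direction and their call under all 20 alternatives run. The log2 difference ranged from 5.59 to 6.35 for Tgfb1, -4.23 to -3.74 for Tgfb2, -6.73 to -5.76 for Tgfb3, 6.46 to 7.28 for Tgfbr1, 0.76 to 1.44 for Smad2 and 1.53 to 2.11 for Smad3. Over all genes the log2 difference had a median of -0.31 with median-of-ratios size factors, -0.33 with library size alone and -0.07 with upper-quartile factors, against -0.14. Higher and lower genes numbered 6394 to 7649 and 8037 to 12197, and the replicate block gave 6858 and 8037. Same-numbered libraries did not deviate together (correlations -0.0543 to 0.02504, with 1 of 5 microglia libraries closest to its own number). The split of bulk brain R1 and R2 from R3 to R5 weighs on these correlations. They therefore cannot decide whether same-numbered libraries share an animal. The block rests on a shared number alone, and it changed no member's call. Superfamily ligands higher in microglia numbered 2 with upper-quartile factors and 1 to 2 when single libraries were left out; Bmp2 was the gene added. Superfamily receptors numbered 6 higher against bulk brain R1 and R2 alone and 7 lower against R3 to R5 alone, and separated neighbours in the bulk brain order numbered 6 over R3 to R5. The cause was not tested. Depth limits Tgfb3, Tgfb2 and Itgb8 in microglia, at 24, 113 and 169 counts.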
